A study of Mus musculus with 4 samples.

Results

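Uncx and Otp are the members described here, 2 genes of the 24971 to which counts were assigned. They were chosen on the measurements themselves: both had more reads, relative to the library total, in each library labelled Lbx1Δ/Δ than in the WT library of the same replicate number. Their values in that contrast are therefore given as a description, with no test. RNA was sequenced from whole neural tubes of C57BL/6 mouse embryos at E12.5, in 2 libraries labelled Lbx1Δ/Δ and 2 labelled WT. For each library the neural tubes of same-genotype littermates had been pooled. The labels do not say which part of Lbx1 was deleted and name no Cre line, transgene or treatment. Total counts were 17250143 and 16853984 in libraries 1 and 2 labelled Lbx1Δ/Δ and 20579803 and 16948717 in WT libraries 1 and 2. Nothing in the labels says that a mutant and a WT pool of the same number came from the same litter, and p-values measure the spread between these pools only.

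Uncx and Otp encode transcription factors of the paired-like homeodomain class, which bind DNA through a homeodomain that recognises sites with a TAAT core. Uncx, also known as Uncx4.1, is best known from the caudal part of each sclerotome segment, where it is needed for vertebral pedicles and proximal ribs, and it is also expressed in the developing nervous system. Otp (orthopedia) is required with the bHLH-PAS factor Sim1 for neuroendocrine neurons of the hypothalamus, and it also marks subsets of spinal interneurons. Lbx1, the gene named in the mutant label, encodes a homeodomain factor that sets the fate of the dI4 to dI6 interneurons of the dorsal spinal cord.

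The sequences just upstream of both genes are shown because Uncx and Otp differed together between the pools and because their own protein class reads TAAT cores. Each run holds the 250 bases before the annotated start, 5′ to 3′, from RefSeq in build GRCm38.p6, with every TAAT core on either strand in capitals. The Uncx window is chr5:139543648-139543897 and the Otp window is chr13:94875386-94875635, both on the plus strand. The deposited counts were made on build mm9, so these positions do not apply to the files.
Uncx: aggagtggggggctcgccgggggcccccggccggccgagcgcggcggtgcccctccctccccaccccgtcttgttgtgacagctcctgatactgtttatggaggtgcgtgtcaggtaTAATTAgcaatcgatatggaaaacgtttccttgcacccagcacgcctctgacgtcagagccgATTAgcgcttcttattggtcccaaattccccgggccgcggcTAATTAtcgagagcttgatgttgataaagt
Otp: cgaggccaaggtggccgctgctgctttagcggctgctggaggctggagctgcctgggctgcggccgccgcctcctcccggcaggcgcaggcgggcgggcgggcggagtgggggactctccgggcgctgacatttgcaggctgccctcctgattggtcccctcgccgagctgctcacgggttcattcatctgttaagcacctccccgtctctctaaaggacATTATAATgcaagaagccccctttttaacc
The Uncx window held 5 matches to TAAT (read as TAAT or ATTA), 4 of which lie in pairs that make up 2 copies of the palindrome TAATTA, at −133 to −128 and at −30 to −25 from the start. Of 32851 annotated start sites, 5.54% had at least 5 TAAT matches in the same window. For TAATTA, 4.8% had at least 1 and 0.44% had 2 or more. The Otp window held no TAATTA and 2 TAAT matches, which adjoin at −30 to −23. At least 2 TAAT matches were found upstream of 30.8% of start sites, and 54.9% had at least 1. GC content was 58.4% for Uncx and 65.2% for Otp, against a median of 52.4% over all start sites, and the windows held 20 and 18 CpG dinucleotides against a median of 6. These matches describe the letters only.

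Neural genes and a Hox gene of trunk level had reads in every pool, but libraries of number 2 differed widely from those of number 1. Genes of other tissues had reads as well, as given below. Sox2, a factor of neural progenitors, was at 267 and 296 CPM in the libraries labelled Lbx1Δ/Δ and at 257 and 298 CPM in WT libraries, where CPM is counts per 1000000 counts of the library after TMM scaling. Tubb3, a neuronal tubulin, was at 2034 and 3695 CPM in the libraries labelled Lbx1Δ/Δ and at 1780 and 3056 CPM in WT, and thus higher in both libraries of number 2. Hoxc6, a gene of brachial and thoracic levels, was at 147 CPM or more in every library. Pax6, with 8 RefSeq accessions, was at 0 in every library, and since reads shared by several transcripts of a gene may have gone uncounted, which was not tested, a 0 of a gene with several accessions says nothing on its expression. Uncx, Otp and Lbx1 each had 1 accession (NM_013702, NM_011021 and NM_010691), and no other annotated gene overlapped Uncx or Otp.

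Lbx1 itself had more reads under the mutant label, with 1946 and 6520 counts in libraries 1 and 2 labelled Lbx1Δ/Δ and 819 and 1379 in WT libraries 1 and 2 (log2 2.02, SE 0.68). Without the deleted part being stated, these counts do not check the genotype, and directions below go by the label of each library.

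Uncx was higher in both libraries labelled Lbx1Δ/Δ than in either WT library. Its counts were 1444 and 1580 in libraries 1 and 2 labelled Lbx1Δ/Δ and 884 and 1034 in WT libraries 1 and 2. As levels these were 84.3 and 92.4 CPM in the libraries labelled Lbx1Δ/Δ and 43.3 and 61.2 CPM in WT. The groups did not overlap, and within each group library 2 was the higher. Exact 95% Poisson intervals, which cover counting error only, ran from 80.0 to 88.7 and from 87.9 to 97.1 CPM in the libraries labelled Lbx1Δ/Δ and from 40.5 to 46.3 and 57.5 to 65.0 CPM in WT. The order was therefore mutant 2, mutant 1, WT 2 and WT 1, and only the intervals of the pair of mutant libraries overlapped. The mean was 88.4 ± 5.79 CPM (SD, n = 2) in the libraries labelled Lbx1Δ/Δ and 52.2 ± 12.6 CPM (SD, n = 2) in WT, a fitted ratio of 1.69-fold and a log2 difference of 0.76 (SE 0.23).

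Otp was also higher in the libraries labelled Lbx1Δ/Δ, but its groups almost met. Its counts were 763 and 1174 in libraries 1 and 2 labelled Lbx1Δ/Δ and 469 and 749 in WT libraries 1 and 2. The levels were 44.5 and 68.7 CPM in the libraries labelled Lbx1Δ/Δ and 23.0 and 44.3 CPM in WT. Library 2 labelled Lbx1Δ/Δ was the highest and WT library 1 the lowest, while mutant library 1 and WT library 2 did not differ beyond counting error, with intervals of 41.4 to 47.8 and 41.2 to 47.6 CPM. The mean was 56.6 ± 17.1 CPM (SD, n = 2) in the libraries labelled Lbx1Δ/Δ and 33.6 ± 15.1 CPM (SD, n = 2) in WT, a fitted ratio of 1.68-fold and a log2 difference of 0.75 (SE 0.41). That difference was 0.37 without WT library 1, 0.40 without library 2 labelled Lbx1Δ/Δ and 1.30 without WT library 2. In pools of tissue, more cells of a type and more RNA per cell cannot be told apart.

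**Figure D1:**
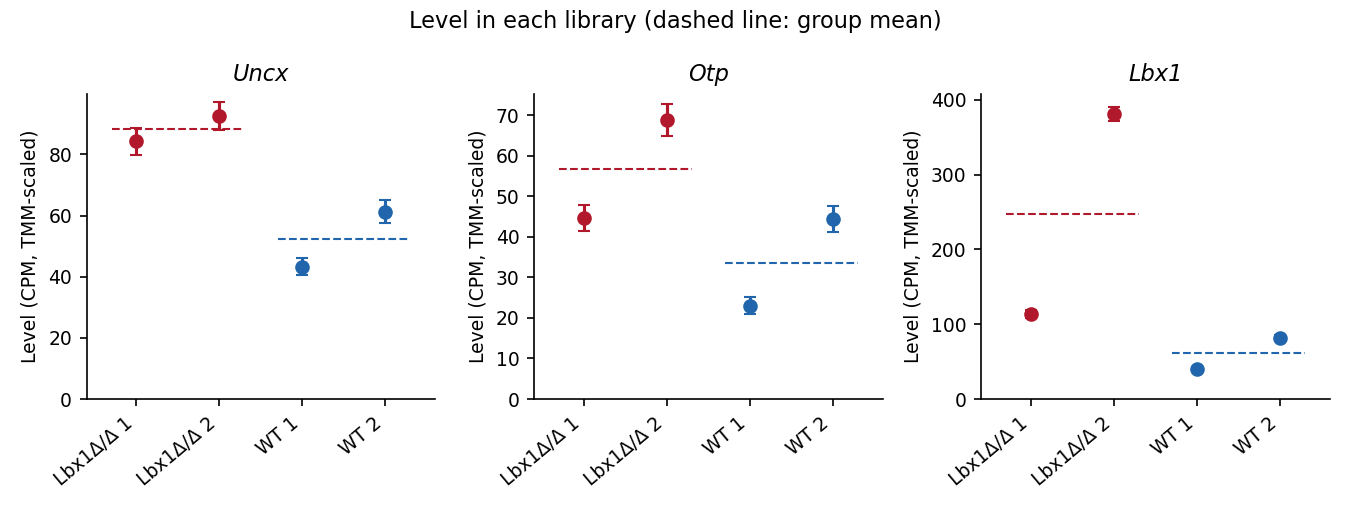
Level of Uncx, Otp and Lbx1 in each library (y axis, CPM after TMM scaling, from 0), with libraries labelled Lbx1Δ/Δ in red and WT in blue. Points are libraries, bars are exact 95% Poisson intervals for counting error and dashed lines are group means; Uncx separates by label, Otp of mutant library 1 (44.5 CPM) sits level with WT library 2 (44.3 CPM), and Lbx1 is highest in mutant library 2 (381 CPM).

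Compared within each replicate number, both genes showed nearly the same ratio. In number 1 the level in the library labelled Lbx1Δ/Δ was 1.95-fold that in WT for Uncx and 1.94-fold for Otp. In number 2 the ratio was 1.51-fold for Uncx and 1.55-fold for Otp. Lbx1 had ratios of 2.83-fold in number 1 and 4.67-fold in number 2, so that its ratio was larger in number 2 where those of Uncx and Otp were smaller. Of the 10757 genes that passed the filter on low counts, 28.4% were higher and 30.9% lower in the mutant-labelled library within both numbers, and groups that did not overlap were found with the mutant higher in 10.5% and with the mutant lower in 9.97%. Being higher within both numbers is thus common among all genes, and it is what the choice of Uncx and Otp fixed. Within both numbers, 1.06% of tested genes had differences at least as large as those of Uncx and 1.03% at least as large as those of Otp. At any level, 116 genes reached the lower of the members' values in each number (log2 0.95 in number 1 and 0.60 in number 2). Of the 6620 tested genes with a mean of 10 CPM or more, 4 did so, Uncx, Otp and Lbx1 among them. These shares and counts are taken at the values by which the genes were chosen and are a description only.

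**Figure D2:**
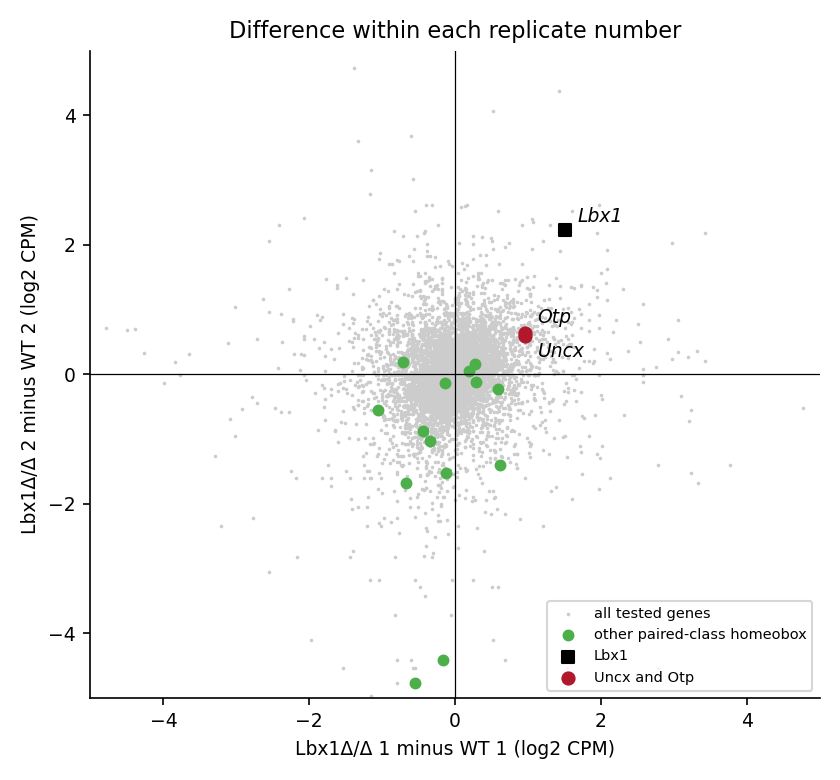
Each point is a tested gene, with its log2 CPM difference, Lbx1Δ/Δ minus WT, in number 1 on the x axis and in number 2 on the y axis, and 5 genes lie outside the axes. Uncx and Otp nearly coincide at 0.96 and 0.95 on the x axis and 0.60 and 0.63 on the y axis, while 11 of the 14 other paired-class homeobox genes (green) lie below 0 on the y axis.

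The balance between the members followed the replicate number. Of the reads counted for either gene, Uncx took 57.4% in library 2 labelled Lbx1Δ/Δ (1580 of 2754, exact Clopper-Pearson 95% interval 55.5% to 59.2%) and 58.0% in WT library 2 (1034 of 1783, 55.7% to 60.3%). In number 1 its share was 65.4% in the library labelled Lbx1Δ/Δ (1444 of 2207, 63.4% to 67.4%) and 65.3% in WT (884 of 1353, 62.7% to 67.9%). The intervals of the number 2 libraries lay below those of the number 1 libraries in both genotypes, whereas the genotypes overlapped within each number. This share does not depend on scaling between libraries, and the intervals cover counting error only. Per length, with transcripts of 2498 bases for Uncx and 2656 bases for Otp, the level of Uncx was above that of Otp in every library. It was at 33.7 and 37.0 CPM per kilobase in the libraries labelled Lbx1Δ/Δ and 17.3 and 24.5 in WT, where Otp was at 16.8 and 25.9 CPM per kilobase in the libraries labelled Lbx1Δ/Δ and 8.65 and 16.7 in WT.

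**Figure D3:**
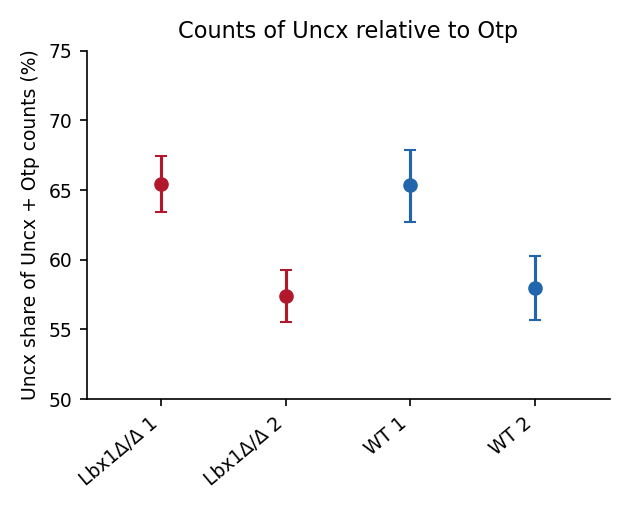
Share of Uncx among the counts of Uncx and Otp together (y axis, %, shown from 50 to 75) in each library, with exact 95% binomial intervals. Libraries of number 1 lie near 65% and libraries of number 2 between 57% and 58% for both labels.

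The number contrast, number 2 minus number 1, was not used to choose the genes and could be tested. Its main fit held number alone, so the genotype difference by which Uncx and Otp were chosen added to their spread. Their not being called in that fit, and their overlap between numbers, are thus partly tied to the choice. The labels give the number no meaning beyond that of a replicate. Over all genes, 13.3% were called higher and 12.2% lower in number 2 (2739 genes, edgeR's quasi-likelihood test, Benjamini-Hochberg adjusted p of 0.05). Neither Uncx nor Otp was among them. The count was 6 without library 1 labelled Lbx1Δ/Δ and 1 without WT library 1, fits in which number 1 has a single library and the spread comes from the pair of number 2 alone. It was 2387 without library 2 labelled Lbx1Δ/Δ and 3917 without WT library 2, where the spread comes from number 1 alone, and why these counts differ was not tested. Uncx was at 92.4 and 61.2 CPM in number 2 (mutant and WT) and at 84.3 and 43.3 CPM in number 1, a log2 difference of 0.27 (SE 0.28, 95% interval −0.35 to 0.89, edgeR adjusted p = 0.513). Otp was at 68.7 and 44.3 CPM in number 2 and at 44.5 and 23.0 CPM in number 1, a log2 difference of 0.75 (SE 0.29, 95% interval 0.10 to 1.40, edgeR adjusted p = 0.0879, unadjusted p = 0.0286). Uncx and Otp were higher in number 2 within both genotypes, as were 39.1% of all tested genes, but for neither did the libraries of number 2 lie wholly above those of number 1, as they did for 32.9%. For Otp that rested on WT library 2 (44.3 CPM) and mutant library 1 (44.5 CPM), which did not differ beyond counting error. The level of Otp in number 2 was 1.54-fold that in number 1 in the libraries labelled Lbx1Δ/Δ and 1.93-fold in WT. For Otp the call depended on settings: it passed without the low-count filter (edgeR adjusted p = 0.0151), with genotype as a covariate (edgeR adjusted p = 0.000387) and without WT library 2 (edgeR adjusted p = 4.07e-05). Uncx passed with genotype as a covariate (edgeR adjusted p = 0.0431) and without WT library 2 (edgeR adjusted p = 0.0128), and its difference turned to −0.15 without WT library 1 and −0.05 without library 2 labelled Lbx1Δ/Δ.

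Other genes of the paired class, listed to ask whether the class moved with its members, had mostly lower values. Of 34 others, 14 passed the filter on low counts, of which 5 lay above and 9 below WT in the fitted values of the libraries labelled Lbx1Δ/Δ, and their median log2 difference was −0.26 against −0.0026 over all tested genes. None was called by genotype (0 of 14, edgeR, and 0 at an unadjusted p under 0.05), where 0% of all genes were called and 55 of 10757 had an unadjusted p under 0.05. Of the remaining 20, 15 had fewer than 10 counts in total (8 of them at 0 in every library), 4 had more and 1 was not analysed here, and 10 of the 20 are known to have several accessions. Alx4, a factor of limb and craniofacial mesenchyme, was at 826 and 91 counts in the libraries labelled Lbx1Δ/Δ and 1562 and 288 in WT (log2 −0.81, SE 1.18). Prrx1, another mesenchymal factor, was at 650 and 245 counts in the libraries labelled Lbx1Δ/Δ and 982 and 495 in WT (log2 −0.57, SE 0.54). Pax7, a factor of dorsal neural progenitors and muscle precursors, was at 775 and 577 counts in the libraries labelled Lbx1Δ/Δ and 761 and 512 in WT (log2 0.22, SE 0.25). Within number 2, 11 of the 14 were below 0. By number, 7 of the 14 were called lower in number 2 and 1 higher (edgeR), against 12.2% and 13.3% of all tested genes. The class median by genotype turned to 0.07 without library 2 labelled Lbx1Δ/Δ and 0.24 without WT library 1. It was −1.64 without library 1 labelled Lbx1Δ/Δ.

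Genes of the sclerotome, the tissue in which Uncx is best known, had fitted values opposite in sign to that of Uncx. Within number 1, 7 of the 10 listed genes were below 0, and within number 2 all 10 were. Those above 0 in number 1 were Pax1 (log2 0.12), Meox1 (0.09) and Pax9 (0.08). All 10 listed genes passed the filter, all had lower fitted values in the libraries labelled Lbx1Δ/Δ, and 7 were lower in number 1 and in number 2 alike (median log2 difference −0.29, 0 called by edgeR). Their summed level was 674.5 and 235.3 CPM in libraries 1 and 2 labelled Lbx1Δ/Δ and 744.5 and 408.3 CPM in WT. Tbx18, a T-box factor of the rostral part of each segment, was at 411 and 214 counts in the libraries labelled Lbx1Δ/Δ and 731 and 250 in WT (log2 −0.47, SE 0.55). Foxc1, a forkhead factor of paraxial mesoderm, was at 1962 and 939 counts in the libraries labelled Lbx1Δ/Δ and 3096 and 1475 in WT (log2 −0.50, SE 0.45). Scx, a factor of tendon precursors, was at 284 and 101 counts in the libraries labelled Lbx1Δ/Δ and 414 and 199 in WT (log2 −0.51, SE 0.58). All 10 were called lower in number 2 than in number 1 (edgeR), as were 12.2% of all tested genes. Their median by number was −1.10, where Uncx had 0.27. The median by genotype turned to 0.28 without library 2 labelled Lbx1Δ/Δ and 0.16 without WT library 1 and was −1.18 without library 1 labelled Lbx1Δ/Δ and −0.75 without WT library 2.

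Genes of cartilage and skeletal muscle had fitted values below 0 as well. All 6 tested cartilage genes were lower within both numbers in the libraries labelled Lbx1Δ/Δ (median −0.42, 0 called by edgeR, 2 at an unadjusted p under 0.05), and their summed level was 458 and 412 CPM in the libraries labelled Lbx1Δ/Δ and 666 and 530 CPM in WT. Matn1, a cartilage matrix protein, was at 19 and 24 counts in the libraries labelled Lbx1Δ/Δ and 65 and 68 in WT (log2 −1.51, SE 0.40). Col11a1, a fibrillar collagen chain of cartilage, was at 4569 and 4208 counts in the libraries labelled Lbx1Δ/Δ and 8211 and 5388 in WT (log2 −0.49, SE 0.18). The cartilage median stayed between −0.60 and −0.35 with each library left out. Of 8 skeletal muscle genes, all had lower fitted values and 7 were lower within both numbers (median −0.57, 0 called by edgeR), with summed levels of 761 and 131 CPM in the libraries labelled Lbx1Δ/Δ and 892 and 422 CPM in WT. The muscle median was 0.19 without library 2 labelled Lbx1Δ/Δ and −2.30 without library 1 labelled Lbx1Δ/Δ, −0.07 without WT library 1 and −1.02 without WT library 2. Mesonephric genes had a median of −0.27 over 5 tested members, 4 of them lower within both numbers and 0 called by edgeR, which turned to 0.10 without library 2 labelled Lbx1Δ/Δ and 0.37 without WT library 1. The part of these tissues in the values of Uncx was not tested beyond these levels.

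Genes of the neuroendocrine programme in which Otp acts had values in either direction, and the hypothalamic hormone genes Avp and Oxt were near 0. Sim1, the partner of Otp in the hypothalamus and a factor of V3 interneurons in the spinal cord, was at 290 and 143 counts in the libraries labelled Lbx1Δ/Δ and 324 and 187 in WT (log2 −0.09, SE 0.44). Pou3f2, a POU factor that acts after Otp in these neurons, was at 3451 and 3542 counts in the libraries labelled Lbx1Δ/Δ and 3527 and 3569 in WT (log2 0.09, SE 0.17). Avp had 0 and 0 counts in the libraries labelled Lbx1Δ/Δ and 0 and 2 in WT, and Oxt had 0 and 0 in the libraries labelled Lbx1Δ/Δ and 1 and 0 in WT. Sst, the somatostatin gene, was at 610 and 981 counts in the libraries labelled Lbx1Δ/Δ and 614 and 1018 in WT (log2 0.04, SE 0.43). Of 11 listed genes 7 were tested, with a median of 0.04 and 0 called (edgeR). Th, tyrosine hydroxylase of catecholamine synthesis, was the nearest of them to Otp in size, at 390 and 723 counts in the libraries labelled Lbx1Δ/Δ and 304 and 392 in WT, a log2 difference of 0.77 (SE 0.41).

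The 8 listed genes of the hypothalamus divided into 5 with few or no reads and 3 with more. Nkx2-1 had 0 and 0 counts in the libraries labelled Lbx1Δ/Δ and 15 and 0 in WT, Rax had 0 and 0 in the libraries labelled Lbx1Δ/Δ and 6 and 0 in WT, and Six6 had 0 and 0 in the libraries labelled Lbx1Δ/Δ and 54 and 4 in WT. Six3 had 12 and 3 counts in the libraries labelled Lbx1Δ/Δ and 33 and 0 in WT, higher under the mutant label in number 2 and lower in number 1 (log2 −0.91, SE 1.59). Fezf1 had 2 and 0 counts in the libraries labelled Lbx1Δ/Δ and 2 and 0 in WT. Of the 8 genes 4 were tested (median 0.54, 0 called by edgeR), and the 3 with higher fitted values are also expressed outside the hypothalamus. Hmx3, a homeobox gene known from the inner ear and hypothalamus, was at 139 and 140 counts in the libraries labelled Lbx1Δ/Δ and 68 and 88 in WT (log2 0.93, SE 0.36, edgeR adjusted p = 0.9998). Its neighbour Hmx2 was at 204 and 211 counts in the libraries labelled Lbx1Δ/Δ and 134 and 140 in WT (log2 0.71, SE 0.28). Foxb1, a forkhead gene of the mammillary region and of the spinal cord, was at 280 and 519 counts in the libraries labelled Lbx1Δ/Δ and 255 and 396 in WT (log2 0.38, SE 0.46). The summed level of the list was 37.2 and 51.1 CPM in the libraries labelled Lbx1Δ/Δ and 27.8 and 37.2 CPM in WT. Its median was 0.61 without WT library 1, −0.19 without library 2 labelled Lbx1Δ/Δ, −0.72 without library 1 labelled Lbx1Δ/Δ and −0.49 without WT library 2. The low-count filter was applied anew in each of these fits, so the genes in these medians can differ from the 4 above. Midbrain dopaminergic genes, another setting of Uncx, had a median of −0.25 over 8 tested members, with 0 called by edgeR, and −0.58 to −0.0007 with each library left out.

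Lists of spinal neuron genes had medians above 0 but below the values of Uncx and Otp, which were chosen as higher. V1 interneurons are inhibitory neurons of the ventral cord, some of which express Otp. En1, which defines them, was at 380 and 250 counts in the libraries labelled Lbx1Δ/Δ and 493 and 340 in WT (log2 −0.27, SE 0.30). Over the 7 tested V1 genes the median was 0.28 and 4 were higher within both numbers, with 0 called (edgeR). For V0, V2 and V3 genes the median was 0.21 over 8 tested genes, and for motor neuron genes it was 0.28 over 8, again with 0 called by edgeR in either list. With each library left out these medians ranged from 0.0018 to 0.16 for V1, from 0.13 to 0.37 for V0, V2 and V3, and from −0.01 to 0.58 for motor neuron genes. Lhx4, a LIM factor of motor neurons and V2 cells, was at 269 and 291 counts in the libraries labelled Lbx1Δ/Δ and 164 and 233 in WT (log2 0.59, SE 0.35).

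Genes of the dI4 to dI6 classes, in which Lbx1 acts, had a median of 0.18 over 19 tested members, 10 of them higher and 3 lower within both numbers, and 0 were called (edgeR). By number, 12 of the 19 were called higher in number 2 and 0 lower (edgeR), with a median of 0.88, where Otp had 0.75. Over all tested genes, 13.3% were called higher and 12.2% lower in number 2. Gsx1, a homeobox factor of dorsal progenitors, was at 275 and 319 counts in the libraries labelled Lbx1Δ/Δ and 246 and 248 in WT (log2 0.38, SE 0.25). Dmrt3, a factor of dI6 neurons, was at 31 and 63 counts in the libraries labelled Lbx1Δ/Δ and 89 and 90 in WT (log2 −0.82, SE 0.47). The median by genotype was −0.38 without library 2 labelled Lbx1Δ/Δ, −0.26 without WT library 1, 0.57 without library 1 labelled Lbx1Δ/Δ and 0.61 without WT library 2. For dI1 to dI3 genes all 9 had higher fitted values (median 0.34, 6 higher within both numbers, 0 called by edgeR), and the median ranged from 0.01, without library 2 labelled Lbx1Δ/Δ, to 0.65, without WT library 2. Barhl1, which has 4 accessions and is uncertain, was at 25 and 33 counts in the libraries labelled Lbx1Δ/Δ and 14 and 6 in WT (log2 1.68, SE 0.54). Its relative Barhl2, which acts in dI1 cells, had 448 and 655 counts in the libraries labelled Lbx1Δ/Δ and 332 and 450 in WT (log2 0.59, SE 0.35), the largest of these values among genes with a single accession.

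**Figure D4:**
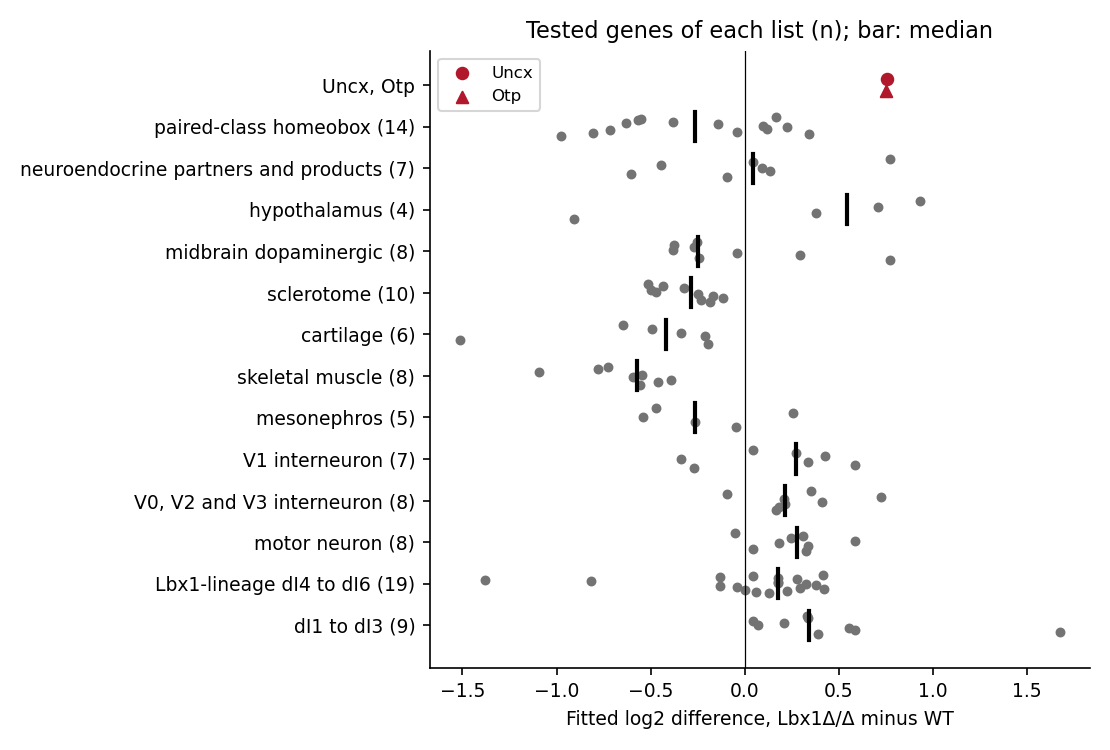
Fitted log2 difference, Lbx1Δ/Δ minus WT (x axis), for each tested gene of each list (grey points, number in brackets) with the list median as a bar, and for Uncx and Otp in red at the top. Uncx (0.76) and Otp (0.75) lie right of every list median, an order favoured by their having been chosen as higher. The sclerotome, cartilage and muscle genes all lie left of 0. Several medians turn when a library is left out, as given in the text.

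The genes nearest to Uncx and Otp on the chromosomes had fitted differences nearer to 0. Uncx and Otp were chosen as higher by label and these neighbours were not, so that contrast is partly built in. Of the 3 genes on each side of Uncx, 5 were tested, with log2 differences between −0.01 and 0.27. Micall2, the next gene after Uncx, was at 519 and 495 counts in the libraries labelled Lbx1Δ/Δ and 596 and 407 in WT (log2 0.15, SE 0.22), and Mafk, the largest, had 0.27 (SE 0.24). Zfand2a, the next gene before Uncx, has 2 accessions and was at 0 in every library. For Otp, Scamp1, Ap3b1, Tbca and Wdr41 were tested, with log2 differences between −0.28 and 0.0027, and Tbca, a tubulin-folding cofactor next to Otp, was at 2354 and 1905 counts in the libraries labelled Lbx1Δ/Δ and 2636 and 2015 in WT. Pde8b had 7 and 4 counts in the libraries labelled Lbx1Δ/Δ and 0 and 1 in WT and was not tested, and Gm48350 was not analysed here. None of these neighbours was called by genotype (0 of 9, edgeR), and the smallest unadjusted p among them was 0.242, for Ints1 (edgeR). The signs of Gper1, Tbca and Wdr41, all within 0.01 of 0, changed under at least 1 other scaling, filter or library left out.

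**Figure D5:**
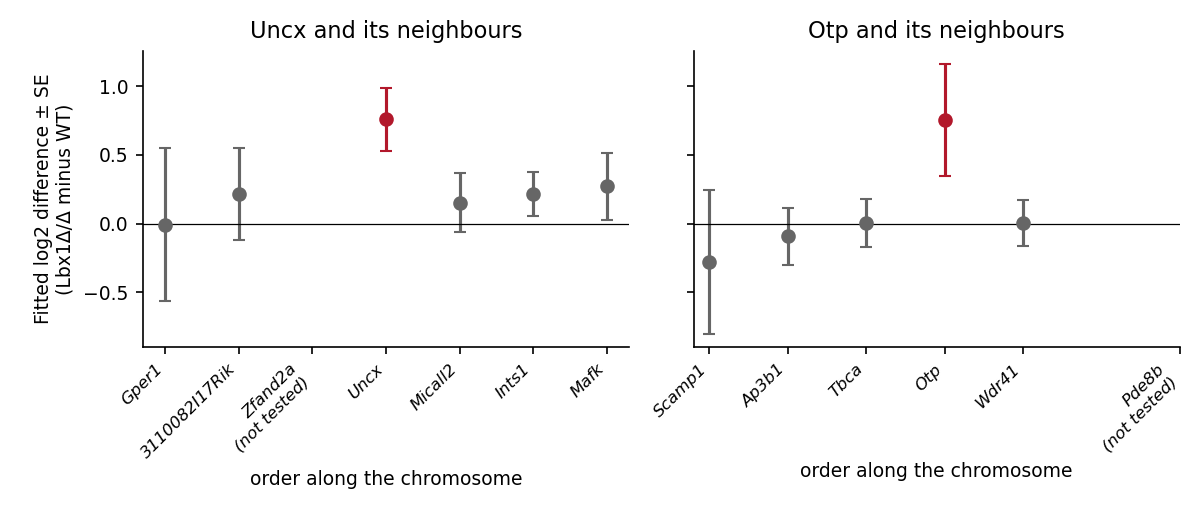
Fitted log2 difference ± SE, Lbx1Δ/Δ minus WT (y axis), for Uncx and Otp (red) and the protein-coding genes nearest to each (grey), in the order of the RefSeq table along the chromosome. The tested neighbours lie between −0.28 and 0.27, below the 0.76 of Uncx and the 0.75 of Otp, which were chosen as higher.

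The genes whose profile over the 4 libraries was most like that of Uncx were D2hgdh, Sp5, Rara, Hmx2 and Prdm8. Likeness was the root mean square distance between mean-centred log2 CPM, which was 0.04 to 0.07 for these genes against a median of 0.49 over all others, and it describes 4 points only. Rara, a retinoic acid receptor with 5 accessions, was at 167 and 191 counts in the libraries labelled Lbx1Δ/Δ and 109 and 115 in WT. Sp5, a zinc finger factor known as a Wnt target, was at 76 and 92 counts in the libraries labelled Lbx1Δ/Δ and 49 and 56 in WT. Prdm8, a zinc finger factor of developing neurons, was at 515 and 634 counts in the libraries labelled Lbx1Δ/Δ and 353 and 382 in WT. D2hgdh, an enzyme that oxidises D-2-hydroxyglutarate, had 8 to 16 counts per library. None of the 5 was called by genotype (0, edgeR).

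For Otp the nearest profiles were those of Phkg2, Gm26688, Dip2b, Tll2 and Cnnm1, at distances of 0.04 to 0.08 against a median of 0.60. All 5 had few reads, from 12 to 119 counts per library. Tll2, a tolloid-like metalloprotease, was at 54 and 78 counts in the libraries labelled Lbx1Δ/Δ and 28 and 48 in WT. Cnnm1, of a family of metal transport mediators, was at 61 and 109 counts in the libraries labelled Lbx1Δ/Δ and 43 and 66 in WT. Otp itself ranked 223 of 10756 by likeness to Uncx, and Uncx ranked 186 by likeness to Otp, at a distance of 0.24. Lbx1 was farther, at 0.81 from Uncx and 0.67 from Otp.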

How the data were processed

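The files deposited by the authors give whole-number, unnormalised read counts for each RefSeq accession. TopHat2, featureCounts, edgeR and build mm9 are named in the submitters' processing notes. Annotation release, strand setting and treatment of shared reads are not stated there. Library depth sets a floor of 3 counts, or 0.146 to 0.178 CPM. Of 41411 accessions, 41218 were named from a RefSeq GRCm38 table and 97 from GENCODE, 96 kept their accession, and counts were summed per gene. Genes passing edgeR's filterByExpr by group (minimum count 10, total 15) numbered 10757. TMM scaling and glmQLFit with glmQLFTest (edgeR 4.0.16, R 4.3.3) were used on genotype alone or number alone, two-sided, Benjamini-Hochberg at 0.05 over all tested genes. The tests were tried on simulated data. Log2 CPM had 0.5 counts added. Transcript lengths are from GENCODE M21. Members and lists were chosen with earlier results of these data known. Named genes were Uncx, Otp, Lbx1, the 3 nearest coding genes per side, the 5 nearest profiles and up to 4 list members by smallest p. Outside that rule, Tubb3, Sox2, Hoxc6, Pax6, Sim1, Sst, Avp, Oxt, Nkx2-1, Rax, Six6, Fezf1, Pax1, Meox1 and Pax9 were chosen after their values were seen. The comparison of homeodomains that was planned is not reported here.

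Alternatives were RLE, upper-quartile and total-count scaling, no filter, CPM above 1 in 2 libraries, DESeq2 1.42.0, limma-voom (limma 3.58.1), the replicate number as a block, each library left out and accessions taken singly. With a library left out the low-count filter was applied anew, so list medians can rest on other members of a list.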

Additional observations from a re-analysis of the deposited data

How the results depend on the processing

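With each library left out, the genotype log2 differences ranged from 0.55 to 1.03 for Uncx and from 0.37 to 1.30 for Otp. Both genes were chosen as higher under the mutant label within each number, so values above 0 are a description only. The values below 0.70 came without WT library 1 (0.55 and 0.37) or without library 2 labelled Lbx1Δ/Δ (0.69 and 0.40). With the replicate block they were 0.78 and 0.79. Genes called by genotype numbered 0, also under DESeq2 and limma-voom (33 and 61 at an unadjusted p under 0.05), but 92 with the replicate block (29 higher, 0.270%, and 63 lower, 0.586%). Among named genes the block called Lbx1 (log2 1.88, edgeR adjusted p = 1.19e-06, against 0.9998 without it) and Th (0.0300) higher. Prdm8 also passed, but it was named for its likeness to Uncx, which was chosen on this contrast. Its call is therefore partly built in and is no test. In edgeR adjusted p the block called Alx4 (0.0147), Foxc1 (0.0137), Col11a1 (0.0227), Hapln1 (0.0411), Myh3 (0.0470) and Wt1 (0.0196) lower. Thus 7 of the lists hold at least 1 blocked call where 0 were called without the block. The labels do not state this pairing and 2 pairs cannot show it. Deviations from the group means correlated between same-numbered libraries (r = 0.62 across 10757 genes, which are not independent replicates). With 2 libraries per group the other matching gives −0.62 by construction, so this r cannot show that pools were paired.

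By number, 2739 genes were called, 1 to 3917 with each library left out (6 without library 1 labelled Lbx1Δ/Δ and 1 without WT library 1). Otp had 0.74 without the low-count filter and 0.78 with genotype as a covariate, and 0.33 to 1.31 with each library left out. Uncx had 0.31 with genotype as a covariate, and −0.15 to 0.84 with each library left out (−0.05 without library 2 labelled Lbx1Δ/Δ and 0.54 without WT library 2). The causes were not tested. Of 1047 values of named genes and list medians under these alternatives, 45 moved by more than the spread between replicates and 60 changed sign, 48 of them on leaving out a library. Some settings of the list medians were added after the data were seen.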
